A study of Mus musculus with 8 samples.

Results

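Paneth cells are epithelial cells at the crypt base that secrete antimicrobial peptides, and the genes described here encode cytokines and growth factors through which an epithelium addresses leukocytes. The group held 10 genes, taken by name and matched to the rows of the count table through their Ensembl IDs. These were Tnf, Il18, Il18bp, Il15, Il15ra, Il7, Il1rn, Il33, Il23a and Csf1, and all 10 were found among the 55414 rows. RNA was sequenced from Paneth cells that had been sorted from the small intestine of wild-type mice. The control group was 4 libraries from mice injected with phosphate-buffered saline (PBS) and the treated group was 4 libraries from mice given an injection of the inflammatory cytokine TNF. Tissue was taken 3 hours after the injection in both groups. The mice were of the C57BL/6J strain, and the libraries of a group are described as biological replicates. No allele or other agent distinguished the groups, and the sources used here state no dose of TNF for these libraries.

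The genes fall into a few signalling families. TNF acts on nearly every cell through its receptors and is itself a classic target of the NF-kB pathway that it activates. The IL-1 family includes IL-18, which is stored as a precursor and released after cleavage by caspase-1, and IL-33, a nuclear alarmin, and both are held in check by soluble inhibitors or decoys. IL-18 is bound by the secreted protein Il18bp, and the receptor of IL-1 is blocked by the antagonist Il1rn. IL-15 and IL-7 sustain lymphocytes, including those that lie between gut epithelial cells, and IL-15 is shown to them by the epithelial receptor chain Il15ra. Csf1 is the growth factor of macrophages, and Il23a is the p19 subunit of IL-23, which drives IL-17 and IL-22 production in lymphocytes.

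The stretch just before the transcription start is shown for 4 members, because their windows hold a match to a motif that was searched (Il33 also does and is not shown), and Tnf also had the largest fold change of the group. Each is the 250 bases upstream of the canonical GENCODE start, on the strand of the gene, in GRCm39. Capitals mark a match to the kappaB consensus, to the interferon-stimulated response element or to the TATA box (TATAAA), each searched on both strands.
Tnf, chr17:35420984-35421233, minus strand: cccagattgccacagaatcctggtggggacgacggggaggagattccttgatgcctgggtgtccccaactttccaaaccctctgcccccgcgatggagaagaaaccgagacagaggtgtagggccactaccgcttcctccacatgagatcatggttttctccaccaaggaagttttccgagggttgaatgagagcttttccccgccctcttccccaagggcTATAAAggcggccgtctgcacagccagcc
Csf1, chr3:107667807-107668056, minus strand: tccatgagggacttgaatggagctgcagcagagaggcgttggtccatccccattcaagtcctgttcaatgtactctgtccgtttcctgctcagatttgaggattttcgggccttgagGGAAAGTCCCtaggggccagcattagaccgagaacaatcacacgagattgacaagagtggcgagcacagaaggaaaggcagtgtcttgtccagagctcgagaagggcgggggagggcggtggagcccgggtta
Il15, chr8:83129852-83130101, minus strand: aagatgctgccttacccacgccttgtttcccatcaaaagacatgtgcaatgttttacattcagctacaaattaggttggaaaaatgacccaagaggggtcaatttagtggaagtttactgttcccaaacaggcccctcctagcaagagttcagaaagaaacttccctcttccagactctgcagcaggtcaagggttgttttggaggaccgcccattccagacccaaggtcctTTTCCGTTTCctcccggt
Il23a, chr10:128133965-128134214, minus strand: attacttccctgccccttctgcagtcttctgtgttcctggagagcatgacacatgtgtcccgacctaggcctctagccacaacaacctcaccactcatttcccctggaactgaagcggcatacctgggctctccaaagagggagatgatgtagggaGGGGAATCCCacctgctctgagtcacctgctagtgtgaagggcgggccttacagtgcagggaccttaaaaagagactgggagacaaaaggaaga

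The capitals in Tnf are a TATA box that begins 29 bases before the start, and those in Csf1 and Il23a are kappaB matches that begin 133 and 94 bases before it, on the opposite strand in Csf1 and readable on both strands in Il23a. In Il15 they are an interferon-stimulated response element on the opposite strand that begins 18 bases before the start. A kappaB match was found in the window of 2 of the 10 members and of 7.61% of 21627 protein-coding genes. For the interferon-stimulated response element it was 1 member and 3.32% of genes, and for the TATA box 2 members, Tnf and Il33, and 11.9%. The gamma-activated sequence (TTCNNNGAA) was in no member window and in 7.73% of genes. No window of a member held matches to more than 1 of these motifs. These are letters in a short window and say nothing about sites farther away or about binding.

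Library totals lay between 23824717 and 32576077 counts. One library stood apart. In TNF replicate 4, alpha-defensin (Defa) genes took 51.4% of counts, against 32 to 37.9% in the other 7 libraries, and its scaling factor was 0.448, against 0.995 to 1.36. Levels are therefore given as normalized CPM, in which the library size behind the CPM is adjusted by the TMM method, and the effect of leaving out this library or of using plain CPM is given beside the results. Defining markers of the labelled cell type were abundant, with Lyz1 at 3940538 to 5288627 counts per library.

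Most members of the group were higher after TNF. Of the 10 genes, 8 passed the filter on low counts and 7 of these were called higher (Tnf, Il1rn, Il33, Il7, Csf1, Il15ra and Il18bp), where a call is an edgeR adjusted p under 0.05 over all 13368 genes tested. Over all those genes, 23.4% were called higher and 19.6% lower, and 0 members were called lower by edgeR, DESeq2 or limma-voom. Il15 was tested and not called, and Il18 and Il23a had too few counts to be tested. The filter asked for 0.379 CPM in 4 libraries, and 4 members passed it through the TNF libraries, since 2 PBS libraries reached that level for Tnf and Il15 and none for Il1rn and Il33. The counts and the median over tested members are therefore descriptions only. For the other 4 tested members (Il18bp, Il15ra, Il7 and Csf1), all PBS libraries reached it. In all 7 called members every TNF value lay above every PBS value in normalized CPM, which was so for 22.4% of all tested genes. In plain CPM, which does not correct for the composition of TNF replicate 4, this held for 5 members (Tnf, Il1rn, Il33, Il7 and Csf1), against 4.56% of all tested genes. Il18bp and Il15ra overlapped on that scale, where TNF replicate 4 was at 2.58 and 2.62 plain CPM, below PBS replicate 4 at 3.22 and 3.01. As a description, the median log2 fold change was 2.49 over the 8 tested members and 0.03 over all tested genes.

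**Figure D1:**
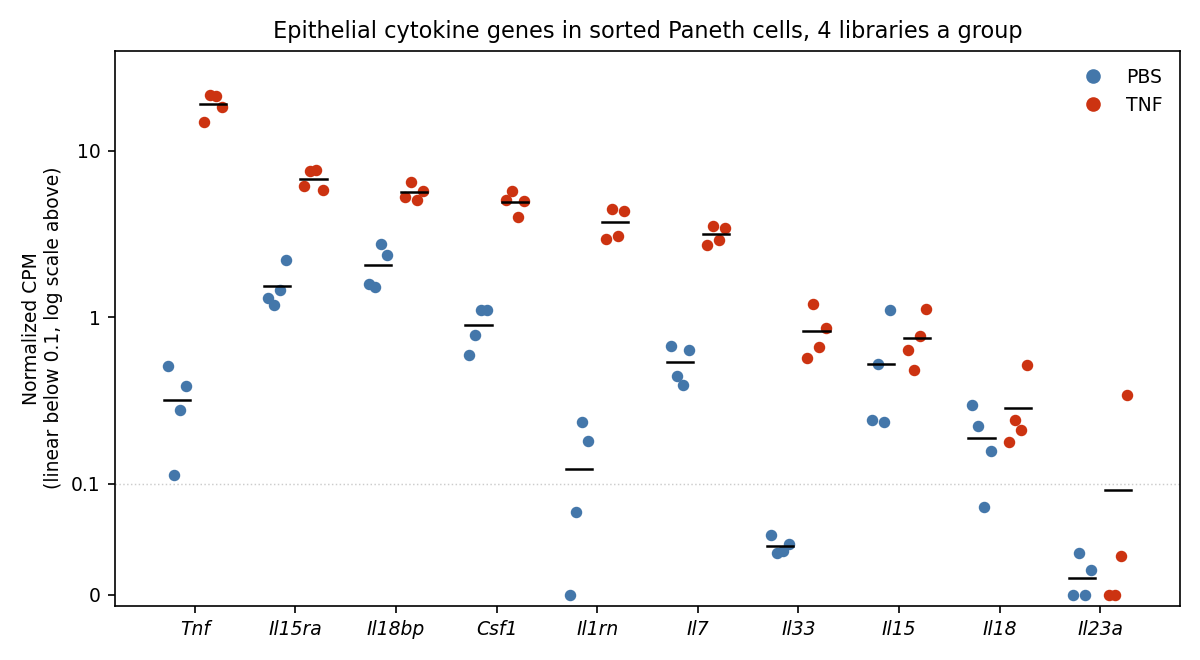
Normalized CPM of the 10 genes in each library (blue PBS, red TNF, 4 points each), with a black line at the group mean. The axis is linear below 0.1 and logarithmic above, and the TNF points of Tnf lie between 14.9 and 21.6 while its PBS points lie between 0.112 and 0.509.

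Tnf (ENSMUSG00000024401, chr17:35418357-35420983), the gene of the injected cytokine itself, had the largest fold change of the group. Its level in PBS replicates 1 to 4 was 0.509, 0.112, 0.276 and 0.385 normalized CPM, from 3 to 19 counts. In the TNF libraries it was 14.9, 21.6, 21.3 and 18.3 normalized CPM, from 213 to 624 counts. The groups did not overlap on either scale, and the lowest TNF value was far above the highest PBS value. The log2 fold change was 5.80 (SE 0.29, 95% interval 5.16 to 6.44, edgeR adjusted p 3.19e-07), a 55.7-fold rise that ranked 43 among the 13368 fold changes. In PBS, Tnf made up 2.26 to 9.69% of the summed normalized CPM of the 10 genes, and in TNF 38.7 to 46.5%. These shares are not corrected for length, and Tnf has the shortest merged exons of the 10 genes (1639 bases). The summed level of the 10 genes was 4.94 to 8.23 normalized CPM in PBS and 38.5 to 51.4 in TNF, and without Tnf it was 4.74 to 7.85 and 23.6 to 29.8.

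Among the IL-1 family genes the antagonist and the alarmin rose from near absence. Il1rn (ENSMUSG00000026981, chr2:24226865-24241506) was at 0, 0.0744, 0.236 and 0.181 normalized CPM in PBS, from 0 to 8 counts. Its TNF values were 2.95, 4.46, 3.09 and 4.38, from 51 to 129 counts. Every TNF library thus held many more reads of the antagonist than any PBS library. The log2 fold change of Il1rn was 4.90 (SE 0.50, 95% interval 3.80 to 5.99, edgeR adjusted p 2.37e-05). Il33 (ENSMUSG00000024810, chr19:29902483-29938933) had 1 or 2 counts in each PBS library, or 0.0372 to 0.0536 normalized CPM. In TNF it had 16, 35, 19 and 10 counts, or 0.568, 1.21, 0.667 and 0.859 normalized CPM. The groups were separate, but the level of Il33 in TNF was still low, at percentile 10.4 of the tested genes. Its log2 fold change was 4.08 (SE 0.45, 95% interval 3.09 to 5.07, edgeR adjusted p 4.15e-05).

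Of the IL-18 pair, the inhibitor was called and the cytokine was too low to test. Il18bp (ENSMUSG00000070427, chr7:101638490-101668206) was at 1.58, 1.52, 2.76 and 2.38 normalized CPM in PBS and at 5.32, 6.54, 5.09 and 5.75 in TNF. All TNF values were higher than all PBS values, and it rose by 1.46 on the log2 scale (SE 0.22, 95% interval 0.98 to 1.94, edgeR adjusted p 0.000341). This was the smallest change among the called members. Numa1 overlaps Il18bp on the other strand and was far more abundant, at 1771 to 4544 counts in PBS and 1327 to 1520 in TNF (log2 fold change -0.31, SE 0.28, edgeR adjusted p 0.388). The libraries were made with a stranded kit, but the sources used here do not state whether the counting used strand. Reads from any exon stretch that both genes cover may therefore stand under either name, and their part in the result was not tested. Overlaps here are of whole gene spans, introns included. Il18 itself (ENSMUSG00000039217, chr9:50466081-50493633) was barely detected. It had 11, 6, 2 and 7 counts in PBS and 5, 7, 6 and 6 in TNF, and the groups overlapped. Tested without the filter, its log2 fold change was 0.41 (SE 0.64, 95% interval -0.89 to 1.72, edgeR adjusted p 0.663), so that neither a rise nor a fall was detectable at this depth. Bco2, with 148 counts over the PBS and 22 over the TNF libraries, and Tex12, with 3 and 1, overlap Il18 on the other strand, and the same limit on shared reads holds for it.

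Of IL-15 and its receptor chain, the chain was called and the cytokine was not. Il15ra (ENSMUSG00000023206, chr2:11710101-11739128), which presents IL-15 to lymphocytes, was at 1.31, 1.19, 1.46 and 2.22 normalized CPM in PBS and at 6.14, 7.58, 7.72 and 5.84 in TNF. It rose by a log2 fold change of 2.13 (SE 0.22, 95% interval 1.64 to 2.61, edgeR adjusted p 2.74e-05). Il15 (ENSMUSG00000031712, chr8:83054226-83129874) was at 0.241, 0.521, 0.236 and 1.11 normalized CPM in PBS and at 0.639, 0.484, 0.772 and 1.12 in TNF. The groups overlapped, and PBS replicate 4, with 49 counts against 6 to 14 in the other PBS libraries, was about as high as the highest TNF library. The log2 fold change of Il15 was 0.40 (SE 0.51, 95% interval -0.73 to 1.52, edgeR adjusted p 0.559), an interval that holds both a fall and a rise. Without PBS replicate 4 it was 1.09 (edgeR adjusted p 0.0706), without PBS replicate 1 it was 0.12 (0.869) and without PBS replicate 3 it was 0.18 (0.808). Scaling by library size alone turned its sign, to -0.08 (edgeR adjusted p 0.925).

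Il7 and Csf1, growth factors of lymphocytes and of macrophages respectively, were both called higher. Il7 (ENSMUSG00000040329, chr3:7635054-7678825) was at 0.670, 0.446, 0.394 and 0.633 normalized CPM in PBS and at 2.73, 3.53, 2.91 and 3.43 in TNF. Its log2 fold change was 2.51 (SE 0.24, 95% interval 1.98 to 3.04, edgeR adjusted p 1.57e-05). The noncoding gene Gm16685 lies across Il7 on the opposite strand, and it had 0 counts in all 4 PBS libraries and 37, 102, 31 and 31 counts in TNF. Il7 had 77, 102, 83 and 40 counts in those TNF libraries, and with strand use in the counting not stated, reads from the stretch that both genes cover may stand under either name. Their part in the rise of Il7 was not tested. Csf1 (ENSMUSG00000014599, chr3:107648364-107667806) was at 0.590, 0.781, 1.10 and 1.11 normalized CPM in PBS and at 5.07, 5.78, 4.00 and 4.98 in TNF. It rose by a log2 fold change of 2.46 (SE 0.24, 95% interval 1.94 to 2.99, edgeR adjusted p 1.77e-05), and no other gene of the count table overlaps it in the annotation.

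Il23a (ENSMUSG00000025383, chr10:128132008-128134621) was at the limit of detection. It had 0, 1, 0 and 1 counts in PBS and 0, 0, 1 and 4 counts in TNF, where 3 counts, or 0.0921 to 0.126 plain CPM per library, is the most that a count of 0 allows. Only TNF replicate 4 was above that limit. Il12b, whose product pairs with p19 to form IL-23, had 0 counts in all 8 libraries. Such limits cover counting error only, since no molecular identifiers are described.

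**Figure D2:**
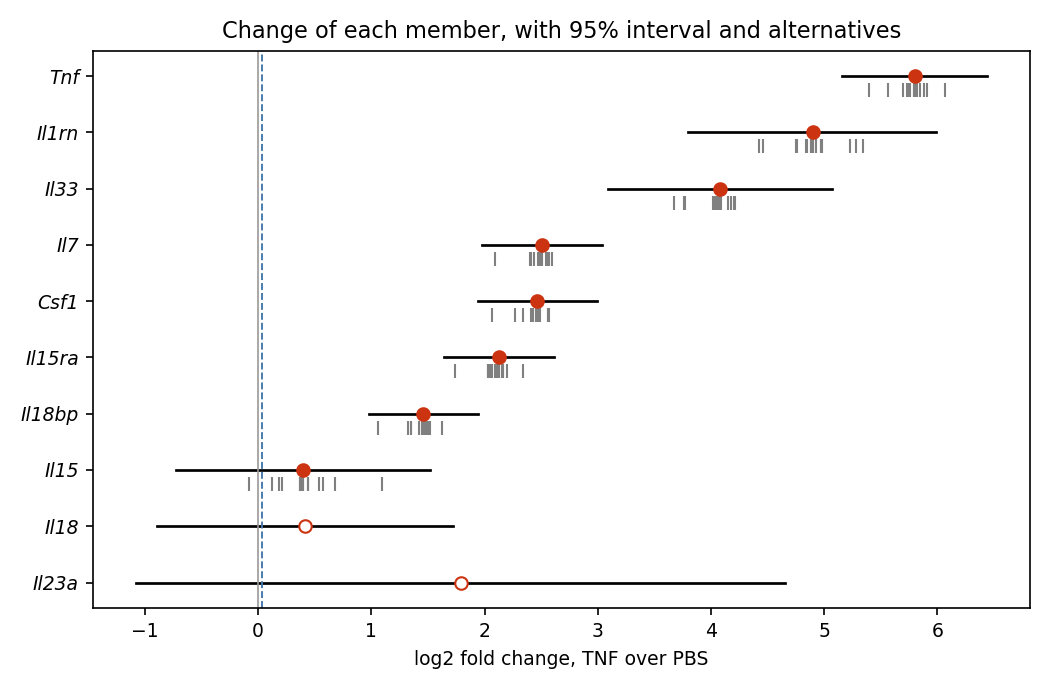
Log2 fold change of TNF over PBS for each gene, with its 95% interval as a black bar and the values under the other settings tried as grey ticks below it. Filled points passed the filter and open points (Il18 and Il23a) come from the fit without a filter. The dashed line is the median of all tested genes (0.03), and the bars of 7 genes lie wholly to the right of it while those of Il15, Il18 and Il23a cross 0.

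Each of the 7 calls was kept in every alternative that tested the gene. Without TNF replicate 4 the log2 fold changes were 5.82 for Tnf, 4.84 for Il1rn, 4.09 for Il33, 2.48 for both Il7 and Csf1, 2.20 for Il15ra and 1.47 for Il18bp. Library size alone shifted the median of all tested genes by -0.40 and lowered the share called higher to 5.66%, with higher genes making up 23.8% of all calls in place of 54.3%. On that scale the same 7 members were called, from 1.06 for Il18bp (edgeR adjusted p 0.0372) to 5.40 for Tnf (6.19e-06).

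Levels of different genes were compared per kilobase of merged exons, in normalized CPM per kb. In PBS the order began with Il18bp at 0.415 ± 0.122 (SD, n = 4), Il15ra at 0.347 ± 0.104, Tnf at 0.195 ± 0.103 and Csf1 at 0.152 ± 0.0434. It ended with Il33 at 0.0071 ± 0.00119 and Il23a at 0.00665 ± 0.00813. The inhibitor of IL-18 and the receptor chain of IL-15 thus had the highest means in resting cells, but the ranges of each pair of neighbours in this order overlapped. In TNF the order was led by Tnf at 11.6 ± 1.91 normalized CPM per kb (SD, n = 4), whose lowest library was above the highest of Il15ra at 1.53 ± 0.218. Then came Il18bp at 1.14 ± 0.129, Csf1 at 0.844 ± 0.124, Il1rn at 0.672 ± 0.147 and Il7 at 0.556 ± 0.0688. The last places were taken by Il33 at 0.134 ± 0.0459, Il15 at 0.108 ± 0.0388, Il18 at 0.0952 ± 0.0515 and Il23a at 0.0421 ± 0.0742. Neighbours were separate between Tnf and Il15ra, between Il18bp and Csf1, and between Il7 and Il33, and overlapped elsewhere. With the longest transcript as the length, Il15ra (0.667) stood before Il18bp (0.663) in PBS, Csf1 (0.213) before Tnf (0.195), and Il18 (0.110) before Il7 (0.102) and Il15 (0.0885). In TNF, Il1rn (1.46) then stood before Csf1 (1.18) and Il18 (0.167) before Il15 (0.127).

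**Figure D3:**
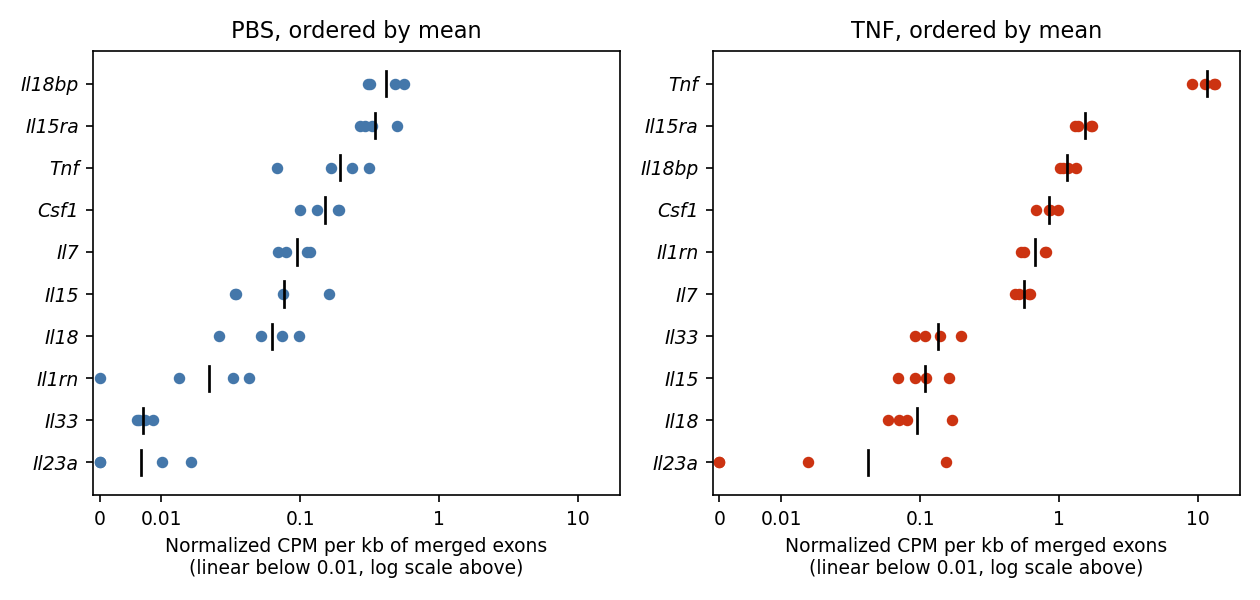
Level of each gene in normalized CPM per kb of merged exons in PBS (left) and TNF (right), ordered by the mean (black line), with 1 point per library. The axis is linear below 0.01 and logarithmic above. Tnf stands below Il18bp and Il15ra in PBS, and below Csf1 too if the longest transcript is the length, and leads in TNF with either length, where its lowest library is at 9.07.

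Ratios within a library do not depend on how libraries are scaled, and 2 were tested. The log2 ratio of Il15 to Il15ra counts was -1.77 ± 0.80 in PBS and -3.20 ± 0.65 in TNF (SD, n = 4), a difference of -1.43 that did not pass (two-sided exact permutation test over 70 assignments, p = 0.0857, adjusted p = 0.171 over 2 ratios). The values were -2.38, -1.16, -2.53 and -0.99 in PBS and -3.23, -3.92, -3.29 and -2.34 in TNF, so that TNF replicate 4 lay within the PBS range. The log2 ratio of Il18 to Il18bp was -3.42 ± 1.12 in PBS and -4.32 ± 0.64 in TNF (SD, n = 4), a difference of -0.90 (p = 0.257 by the same exact permutation test, 0.257 when adjusted). The smallest p that 4 against 4 libraries allow is 0.0286. The ratio of Csf1 to Il34, the other ligand of the same receptor, was not tested, since Il34 had only 0 to 6 counts in PBS and 3 to 19 in TNF.

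In a list without the TNF receptors and the member Il15ra, genes for the receptors of these cytokines were mostly at or near 0. Of 13 receptor genes 3 were tested and 1 was called higher, 10 stayed under 10 counts in every library, and 4 had 0 counts in all libraries (Il1r2, Il1rl1, Il7r and Il23r). Il1rap, the shared chain of IL-1 and IL-33 receptors, rose from 5.90 ± 0.645 to 10.6 ± 2.50 normalized CPM (SD, n = 4, log2 fold change 0.85, SE 0.18, edgeR adjusted p 0.00339), but under library size alone it was not called (0.52, adjusted p 0.335). Sigirr, an inhibitory receptor of the family, was at 11.6 ± 0.747 and 11.2 ± 3.52 normalized CPM (SD, n = 4, log2 fold change -0.06, edgeR adjusted p 0.812). The receptor of Csf1, Csf1r, was at 2.10 ± 0.510 and 2.99 ± 0.303 normalized CPM (SD, n = 4, log2 fold change 0.51, edgeR adjusted p 0.0721). It was called without PBS replicate 4 (0.66, edgeR adjusted p 0.0228) and without TNF replicate 4 (0.56, 0.0431).

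Genes that serve the processing and release of these cytokines, namely caspases, inflammasome sensors and their adaptor, the pore protein Gsdmd and shedding proteases with their partners, were mostly called higher where they could be tested. Of 13 such genes 10 were tested, with 8 called higher and 1 lower, against 23.4% and 19.6% of all tested genes. The list was chosen with earlier results of these data known, so these counts are a description only. Of the genes not tested, Nlrp1a had 0 counts in all libraries, Nlrp3 had 1 count in all, and Nlrp1b had 9 to 19 counts in PBS and 0 to 3 in TNF. Casp4, the inflammatory caspase that senses lipopolysaccharide, was at 3.78 ± 0.923 in PBS and 109 ± 24.3 normalized CPM in TNF (SD, n = 4) and rose by 4.83 on the log2 scale (SE 0.23, edgeR adjusted p 2.19e-07). Gsdmd, the pore-forming protein that lets mature IL-1 family cytokines out, rose by 2.33 (SE 0.21, edgeR adjusted p 1.02e-05). Rhbdf2, a partner that brings the TNF-releasing protease Adam17 to the cell surface, rose by 1.81 (SE 0.13, edgeR adjusted p 2.45e-06). Nlrp6, an epithelial inflammasome sensor, fell by 2.39 on the log2 scale, from 52.5 ± 7.89 to 10 ± 3.22 normalized CPM (SD, n = 4, edgeR adjusted p 1.33e-05). Another sensor, Nlrc4, rose by 1.07 (SE 0.16, edgeR adjusted p 0.000363). The adaptor Pycard, at -0.44 (SE 0.25, edgeR adjusted p 0.174), was not called. Nlrc4 and Pycard are also named after their values were seen. Casp1 and Adam17, named after their values were seen because they process IL-18 and TNF, rose by 1.2 (SE 0.20, edgeR adjusted p 0.000621) and 0.43 (SE 0.12, edgeR adjusted p 0.0131). Under library size alone neither was called (0.70 and 0.06), and the Adam17 call was also lost with no filter (0.39), without PBS replicate 1 (0.42) or 4 (0.39), and without TNF replicate 1 (0.42) or 2 (0.32).

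Other cytokines were few. None of the 11 other IL-1 and IL-12 family ligands passed the filter, 6 had 0 counts in all libraries and 10 stayed under 10 counts in every library. The same filter passed none of 11 lymphocyte cytokine genes, of which 9 were at 0 in all libraries, Ifng, Il17a and Il22 among them. Of 20 other leukocyte growth factors and epithelial cytokines, 5 were tested and 2 called higher. Tgfb1, which restrains many leukocytes, rose from 5.23 ± 0.825 to 17.3 ± 1.34 normalized CPM (SD, n = 4, log2 fold change 1.73, edgeR adjusted p 5.99e-06). Lif, a cytokine of the IL-6 family, rose from 0.987 ± 0.102 to 3.17 ± 0.927 normalized CPM (SD, n = 4, log2 fold change 1.69, edgeR adjusted p 0.000256). Kitl, the stem cell factor, was at -0.24 on the log2 scale (SE 0.15, edgeR adjusted p 0.217). It was called lower under library size alone without TNF replicate 4 (-0.47, edgeR adjusted p 0.0348), an alternative chosen after seeing the data. Tnfsf13b, the B cell factor BAFF, was at -0.66 (SE 0.41, edgeR adjusted p 0.221) and was called lower without TNF replicate 4 (-1.09, adjusted p 0.0162) and under library size alone (-1.16, adjusted p 0.0364). Il6, Il10 and Ifnb1 were at 0 counts in all 8 libraries.

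**Figure D4:**
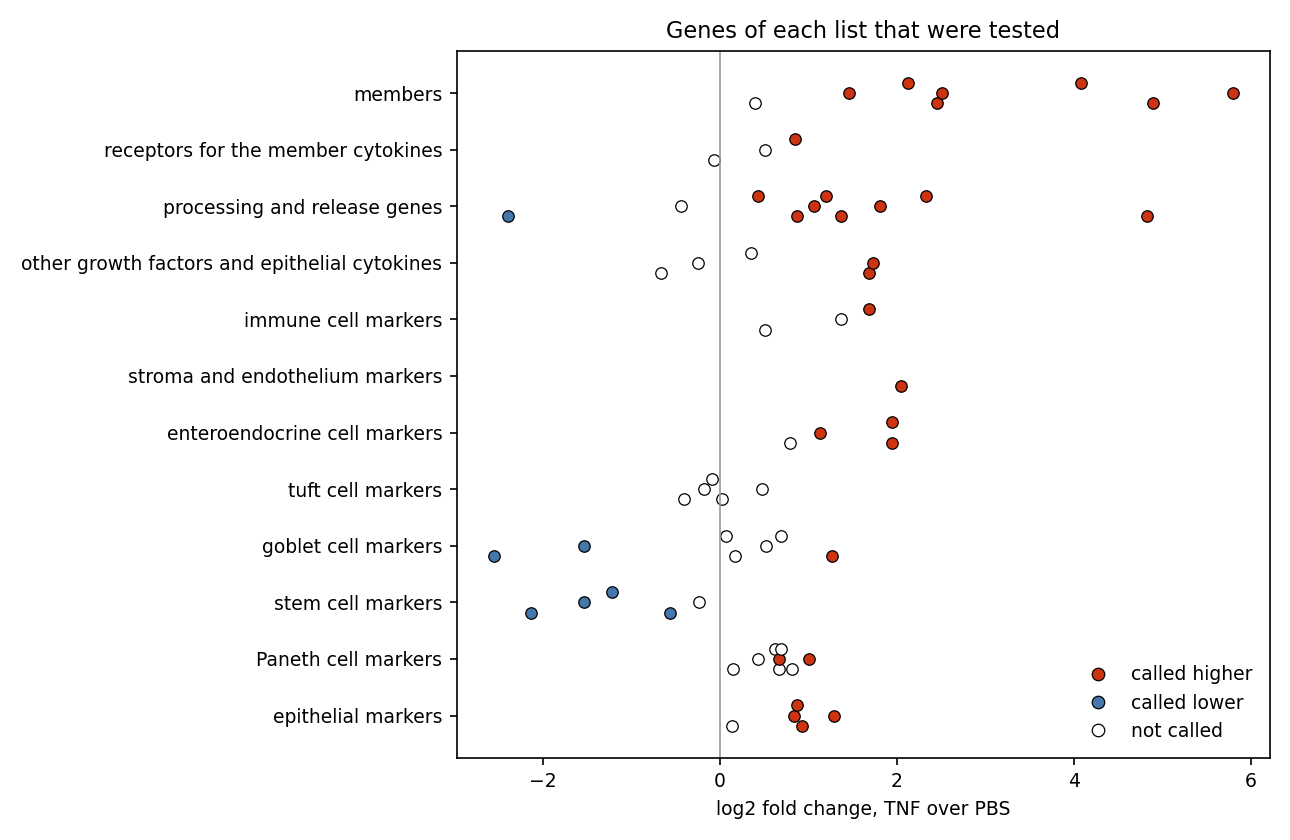
Log2 fold change of TNF over PBS for the tested genes of the members, of the receptor, processing and release, and growth factor lists, and of the immune, stroma, enteroendocrine, tuft, goblet, stem, Paneth and epithelial marker lists, 1 point per gene, filled red where called higher, blue where called lower and white where not called (points are shifted up or down for legibility only). The members (7 of 8) and the processing and release genes (8 of 10) have the most red points, and the blue points are Nlrp6 at -2.39, 2 goblet and 4 stem cell markers.

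Markers of other cell types were read beside these changes, because in bulk RNA a change in the cells present and a change in RNA per cell cannot be told apart. Of 23 immune cell markers 14 had 0 counts in all libraries, among them Cd3e, Cd3g, Cd8a, Cd4, Cd79a, Adgre1, Itgax, S100a8 and S100a9. Ptprc, carried by all leukocytes, had 10, 3, 10 and 5 counts in PBS and 1, 0, 1 and 9 in TNF. The summed level of the immune list was 9.95 to 14.6 normalized CPM in PBS and 14.1 to 71.8 in TNF, with TNF replicate 4 at 71.8 and the others at 16.6 or below. Lyz2, a close relative of the very abundant Lyz1, made up most of it. Without Lyz2, a choice made after seeing the data, the sum was 2.87 to 3.71 in PBS and 4.43 to 7.47 in TNF, again highest in TNF replicate 4. The called immune marker was Cd52 (log2 fold change 1.69, edgeR adjusted p 0.0118). Of 11 stroma and endothelium markers 1 was tested, Vim, which rose by 2.05 (edgeR adjusted p 0.000921), and the summed level of that list went from 0.26 to 0.452 in PBS to 1.26 to 1.87 normalized CPM in TNF. By its means of 0.272 in PBS and 1.16 in TNF, Vim made up most of that sum. Col1a2 and Col3a1 were at 0 in all libraries.

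Enteroendocrine markers also moved with the treatment. Of 5 genes 4 were tested and 3 called higher, Chga (1.95), Chgb (1.95) and Gcg (1.13), and their summed level was 10.3 to 13.2 normalized CPM in PBS and 30.3 to 61 in TNF, highest in TNF replicate 4. The Gcg call (edgeR adjusted p 0.0488) was lost when PBS replicate 1 (1.2), 3 (1.15) or 4 (0.79) or TNF replicate 2 (1.02) or 4 (0.81) was left out, and also under library size alone (0.62) and with at least 1 CPM in 4 libraries (1.12). None of 5 tuft cell markers was called by edgeR, none had an unadjusted p under 0.05, and their sum was 16.5 to 38.5 normalized CPM in PBS and 10.5 to 66 in TNF, where TNF replicate 4 held the 66 and the others 20 or less. Among the remaining lists, 1 of 7 goblet cell markers was called higher (Muc2) and 2 lower (Clca1 and Fcgbp). Of 5 stem cell markers 4 were called lower (Ascl2, Axin2, Lgr5 and Smoc2). Of 8 Paneth cell markers 2 were called higher (Pla2g2a and Sox9), and of 5 general epithelial markers 4 (Krt8, Krt18, Epcam and Cdh1). Under library size alone, 7 of these calls were lost. Smoc2 was then at -0.90 in place of -0.56 and Muc2 at 0.96 in place of 1.27, while Pla2g2a (0.63), Sox9 (0.29), Krt18 (0.51), Epcam (0.55) and Cdh1 (0.51) were lower than in the TMM fit (1.01, 0.67, 0.88, 0.93 and 0.84). Clca1 was at -2.55 (edgeR adjusted p 0.0295), but PBS replicate 1 held 20659 of its counts against 1091 to 1815 in the other PBS libraries, and without that library it was at -0.60 (0.0285). It was not called with limma-voom (-1.53) or without TNF replicate 1 (-2.51), 2 (-2.52) or 3 (-2.51). The part of these marker changes in the rise of the cytokine genes was not tested.

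Genes with the most similar pattern were listed for the 3 tested members of highest mean level, by Pearson correlation of log2 normalized CPM over the 8 libraries among 8204 or 8205 other protein-coding genes. For Tnf they were Gch1 (r = 0.9981), Tnip1 (0.9971) and Plekhm1 (0.9966). For Il15ra they were Zfand5 (0.9989), Syne4 (0.9966) and Bmpr2 (0.9959), and for Il18bp Alyref (0.981), Sema4b (0.9781) and Smg8 (0.9777). All 8 points come from the same 2 groups, and 1285 genes had an r over 0.9 with Tnf, 1288 with Il15ra and 810 with Il18bp.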

How the data were processed

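The authors deposited raw counts per Ensembl gene ID, 1 column per library. The submitters' processing notes name FastQC 0.12, STAR 2.7.10a, DESeq2 and the mm39 build. The study's methods describe a realignment with a GENCODE annotation and a different STAR release, and do not say that it gave these counts. Not given in the sources used here were the counter, the annotation behind the counts and the treatment of shared reads or strand. Symbols, positions and exon lengths came from GENCODE M39 (GRCm39, the same assembly), which matched 54749 IDs and left 665 unmatched. The unmatched IDs stayed in totals and tests.

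Genes were tested across the table with the quasi-likelihood method of edgeR 4.0.16 (R 4.3.3), with TMM factors, filterByExpr (a minimum count of 10) and the group as the sole term. Benjamini-Hochberg adjustment was made over 13368 genes, with a threshold of 0.05. SEs came from the F statistic, and intervals are at the 95% level. DESeq2 1.42.0 and limma 3.58.1 (voom) were alternatives. Ratios used counts plus 0.5 and log2 CPM a prior count of 2. The members and lists were chosen with earlier results of these data known. Named beside the members were the 4 genes of smallest p in the receptor, enzyme, ligand and growth factor lists, every called gene of lists with 6 or fewer, and for 3 members the 3 most similar genes. Similar genes needed a mean of at least 5 normalized CPM. The enterocyte marker list is not reported here. The procedure was tested on simulated data. No 2 libraries of a group agreed within sampling noise (lowest chi-square per degree of freedom 8.77).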

Additional observations from a re-analysis of the deposited data

Results flagged for a closer look

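Of the 20 sets of 4 libraries examined (10 genes in each group), 1 held a library far from the others. Il23a was at 0.343 normalized CPM in TNF replicate 4, from 4 counts, and the nearest TNF library was at 0.0351. Chance alone marks about 1 in 20 such sets. TNF replicate 4 is also the library with the scaling factor of 0.448, which raises the normalized value of each of its counts.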

How the results depend on the processing

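All 7 calls of members and the absence of calls of lower members were kept under RLE factors, library size alone, TMM without the Defa genes, DESeq2, limma-voom, an adjusted p under 0.01, no filter, and without each library in turn. With at least 1 CPM in 4 libraries 6 members were called, since Il33 was not tested there. The median log2 fold change of the tested members moved from 2.49 to 2.08 under library size alone and to 2.26 with no filter, which added Il18 and Il23a. It was 2.28 under library size alone without TNF replicate 4, an alternative chosen after seeing the data, and 2.38 to 2.57 without each library in turn. Il15 changed sign under library size alone (-0.08) and under library size alone without TNF replicate 4 (-0.0015), and Sigirr, at -0.06, ranged from -0.27 to 0.07 without each library (0.07 without TNF replicate 3), and none of these was past the threshold. Without each library the Il15 to Il15ra difference ranged from -1.71 to -1.17 and that of Il18 to Il18bp from -1.37 to -0.55, and neither passed.

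Libraries of the 2 groups share replicate numbers, but deviations from the group means correlated at 0.0229, 0.0663, -0.144 and -0.126 for numbers 1 to 4, so no pairing by number was detected. These values cannot show whether the libraries were prepared in pairs. With the replicate block 2741 genes were called higher and 2346 lower in place of 3122 and 2625, the same 7 members were called, and the calls of Gcg (1.09) and Clca1 (-1.33) were lost. A paired test of the ratios was not run, since an exact permutation test of 4 pairs cannot reach the threshold. Depth limits Il18 and Il23a, which had at most 11 and 4 counts in any library, and the number of PBS reads limits the fold changes of Il1rn and Il33.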

Other observations

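Of the 81 list genes that did not pass the filter, 40 could be tested without it, over 23246 genes. At an edgeR adjusted p under 0.05, 5 of the 40 were called higher and 2 lower, against 13% and 12% of all genes in the same fit, so the shares are near or below the background. They are named after their values were seen. Il1a, the IL-1 ligand stored in epithelial cells, had 11, 2, 6 and 4 counts in PBS and 0 in all TNF libraries (edgeR adjusted p 0.00555), while its antagonist Il1rn rose. Il17c, an epithelial cytokine, had 0 counts in all PBS libraries and 4, 9, 4 and 2 in TNF (edgeR adjusted p 0.00211). Il34, the second ligand of the Csf1 receptor, had 6, 1, 0 and 0 counts in PBS and 3, 19, 7 and 12 in TNF (log2 fold change 3.03, SE 0.85, edgeR adjusted p 0.0072). Nlrp1b, an inflammasome sensor, had 19, 9, 10 and 19 counts in PBS and 0, 3, 0 and 0 in TNF (log2 fold change -3.63, SE 0.83, edgeR adjusted p 0.00106). Ltb, a TNF family member, had 9, 2, 0 and 0 counts in PBS and 8, 14, 12 and 3 in TNF (edgeR adjusted p 0.0477). The other two were the stroma marker Col1a1 (0 counts in PBS and 1 to 6 in TNF, adjusted p 0.019) and the enteroendocrine marker Neurod1 (3 to 8 and 10 to 29 counts, adjusted p 0.0062). Each rests on few reads.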
